A study of Mus musculus with 10 samples.

Results

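Respiratory complex I (NADH:ubiquinone oxidoreductase) was followed through the nuclear genes whose mouse symbols begin with Nduf. They were taken as every listed Ensembl identifier that maps to a protein-coding gene with such a symbol, which gave 46 genes of 25006 listed. Of these, 36 encode subunits, 8 encode assembly factors (symbols beginning Ndufaf), and 2 carry the name without being subunits of the complex (Ndufa4 and Ndufa4l2). The pseudogenes Ndufa11b and Ndufb4c were left out, and no row mapped to a protein-coding Ndufb1. The RNA came from 10 neurons taken singly in the nucleus of the solitary tract, which relays signals from the gut and heart in the brainstem, in acute slices of C57BL/6 mice 3 months old. All 10 carried the LepRb-Cre; Halo-eYFP transgenes, in which Cre expressed with the leptin receptor switches on a yellow fluorescent protein. No transgene-free group was analysed here. Each neuron's cytoplasm and nucleus were drawn together into a patch pipette and made into 1 library. The neurons were sorted by their electrical behaviour into type 1 firing (n = 5, neurons 1-1, 1-2, 4-3, 8-2 and 9-1) and type 2 firing (n = 5, neurons 6-2, 10-1, 10-3, 9-2 and 9-4). The labels name neither the animals nor the firing criteria.

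Complex I oxidises NADH in the mitochondrial matrix, hands the electrons through a flavin and a chain of iron-sulphur clusters to ubiquinone, and pumps protons across the inner membrane. It is L-shaped: a matrix arm carries the redox centres, and a membrane arm holds the proton channels, whose core is encoded by mitochondrial DNA. A set of conserved core subunits does the catalysis, and the accessory subunits around them stabilise the complex. Assembly factors help to build it and are not part of the finished enzyme. Neurons depend heavily on oxidative phosphorylation for the ATP that restores ion gradients after firing.

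Library totals ran from 9796799 to 41844825 gene counts, with 3 type 1 and 1 type 2 libraries under 20000000. Levels are CPM, a gene's counts per 1000000 of the library's summed gene counts, and a gene was called detected when it had 3 or more counts and reached 10 CPM. The neurons had 5315 to 7367 detected genes, and of 10 genes found in neurons generally, 8 to 10 were detected in each. Leptin receptor RNA itself ranged from 0.89 CPM in 9-4 to 122 CPM in 1-1. Every library is 1 cell and no animal is named, so each type counts as 1 sample and no test between types was made. SDs below describe the spread between the 5 neurons of a type. A difference is the mean log2(CPM + 1) of type 2 minus that of type 1, which understates the change of genes at low levels. For 12 of the 46 genes, exon bases are shared with an oppositely oriented gene that has counts, and since the strand option of the counting is not given in the sources used here their values are uncertain. The 26 subunits without such a partner had a median difference of 0.61, beside 0.24 over all genes averaging 1 CPM or more. Of these 26, 24 had the higher mean in type 2, beside 56.2% of all genes at that level. The pseudogene copies took few reads: Ndufa11b reached at most 0.656 CPM in any neuron and Ndufb4c at most 0.328 CPM.

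The gene starts of the members that the results turn on are shown first. The RefSeq promoter table (GRCm38.p6, 250 bases before to 50 after the gene start) held 32 of the 36 subunit genes and 7 of the 8 assembly factors. Ndufc2 and Ndufa11 are the members whose types did not overlap, and Ndufs6 is the matrix-arm accessory subunit with the lowest difference. Capitals mark matches to the NRF1 motif (GCGCA, any base, GCGC) and, in Ndufs6, also the YY1 motif AAGATGGCG, searched on both strands. NRF1 and YY1 are transcription factors known to bind the promoters of many nuclear genes for mitochondrial proteins. The windows are chr7:97399753-97400052 on the plus strand for Ndufc2, chr17:56717512-56717811 on the plus strand for Ndufa11 and chr13:73328433-73328732 on the minus strand for Ndufs6.
Ndufc2: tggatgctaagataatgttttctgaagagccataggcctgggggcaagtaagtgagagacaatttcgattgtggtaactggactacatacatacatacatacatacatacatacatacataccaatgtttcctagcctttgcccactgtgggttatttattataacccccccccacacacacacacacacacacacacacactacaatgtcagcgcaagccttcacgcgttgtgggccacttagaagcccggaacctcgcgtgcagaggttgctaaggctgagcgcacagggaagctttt
Ndufa11: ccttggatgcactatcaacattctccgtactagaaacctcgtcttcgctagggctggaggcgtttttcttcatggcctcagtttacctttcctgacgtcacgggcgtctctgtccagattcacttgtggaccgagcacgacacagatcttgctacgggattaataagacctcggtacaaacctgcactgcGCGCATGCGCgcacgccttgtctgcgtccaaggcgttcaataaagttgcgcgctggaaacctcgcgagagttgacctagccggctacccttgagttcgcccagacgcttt
Ndufs6: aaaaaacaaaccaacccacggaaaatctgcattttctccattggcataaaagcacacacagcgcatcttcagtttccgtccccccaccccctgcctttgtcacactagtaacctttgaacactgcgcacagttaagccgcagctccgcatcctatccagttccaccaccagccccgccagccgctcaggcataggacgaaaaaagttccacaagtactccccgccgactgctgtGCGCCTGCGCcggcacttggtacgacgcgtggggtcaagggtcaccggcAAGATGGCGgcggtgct
The Ndufa11 window has the NRF1 letters 60 bases before the gene start, where the palindromic match reads on both strands. In Ndufs6 the NRF1 letters begin 16 bases before the start and the YY1 letters 33 bases after it. The Ndufc2 window holds neither motif, nor the ETS-family motif CCGGAAG. Over the 32 subunit genes, 7 (21.9%) held the NRF1 motif, beside 5.19% of all genes in the table and 11.9% of those averaging 1 CPM or more. The YY1 letters were in 5 subunit genes (15.6%, beside 1.64% and 3.73%). The ETS letters were in 4 (12.5%, beside 9.93% and 20.4%). Subunits with the NRF1 motif (Ndufa5, Ndufa6, Ndufa8, Ndufa11, Ndufb4, Ndufs5 and Ndufs6) had a median difference between types of 0.49, and the 25 without it 0.67. A match describes the letters of the window only.

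Summed over the 36 subunits, complex I RNA was 6352 ± 883 CPM in type 1 (SD, n = 5) and 9483 ± 2066 CPM in type 2 (SD, n = 5), a ratio of 1.49. By neuron, the sums in type 1 were 6505 (1-1), 7601 (1-2), 5716 (4-3), 5321 (8-2) and 6616 CPM (9-1). In type 2 they were 12913 (6-2), 9285 (10-1), 7492 (10-3), 8344 (9-2) and 9379 CPM (9-4). The types met only where the highest type 1 neuron, 1-2, stood above the lowest type 2 neuron, 10-3. Pooling the reads of the type 1 neurons gave 6160 CPM, with 6145 to 6174 as its exact 95% Poisson interval, and pooling those of type 2 gave 8988 CPM (8973 to 9003). These intervals cover counting error only and not amplification. 

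**Figure D1:**
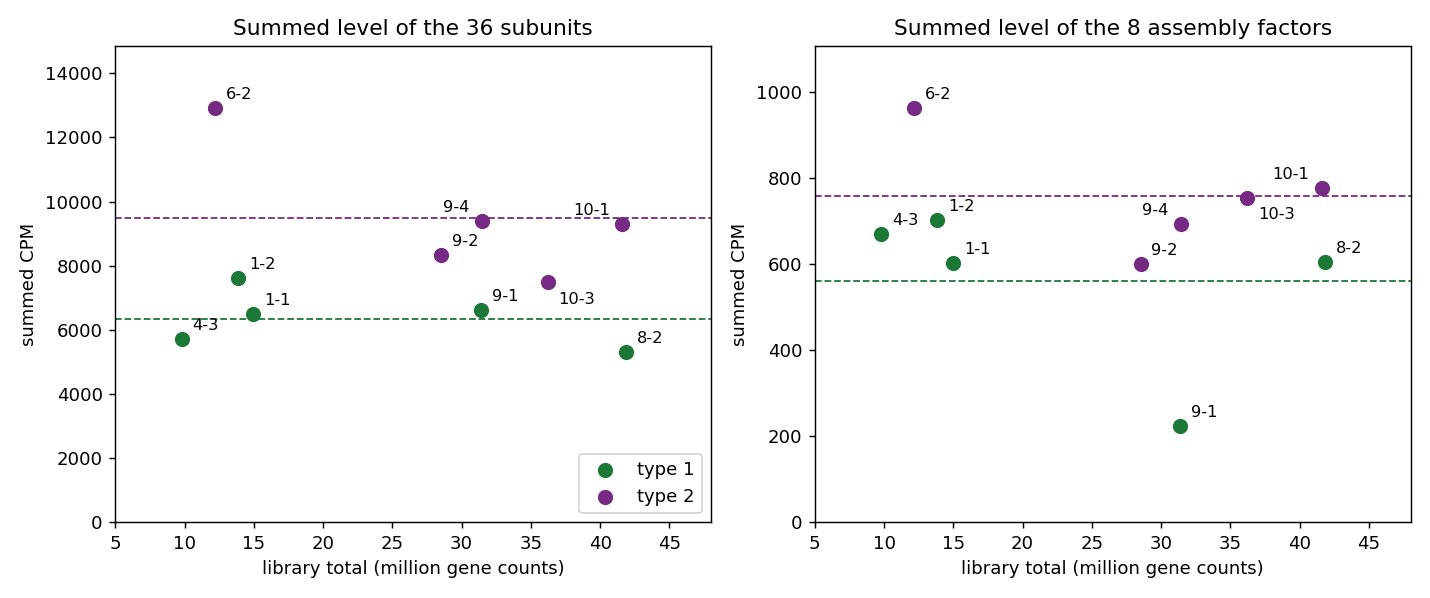
Summed CPM of the 36 complex I subunits and of the 8 assembly factors in each neuron (points, named), plotted against the library total in gene counts, with a dashed line at the mean of each firing type. Subunit sums run from 5321 to 7601 CPM in type 1 and from 7492 to 12913 CPM in type 2. Neuron 9-1 has the lowest assembly-factor sum.

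Most subunits leaned the same way. Of the 36, 31 (86.1%) had the higher mean log2 level in type 2, where 56.2% of the 11923 genes that average 1 CPM or more did, as did 58.0% of the 4384 genes within the subunits' own range of mean level (49.5 to 423 CPM). The median subunit difference was 0.61, beside 0.24 over all genes and 0.27 over the genes in that range. The share of subunits with a large difference was near that of other genes. A difference of 1 or more was reached by 9 of 36 subunits (25%), beside 31.1% of all genes and 30.2% of genes in the range. No subunit was lower in type 2 by 1 or more, beside 21.6% of all genes and 19.5% of those in the range. The 5 subunits with the higher mean in type 1 were Ndufs1, Ndufs6, Ndufb6, Ndufc1 and Ndufab1. Among them, Ndufs1, Ndufs6 and Ndufb6 share exon bases with an oppositely oriented gene that has counts, so their values carry the doubt about strand. With TMM scaling, which moved the all-gene median to 0.39, 35 of the 36 had the higher mean in type 2, so the direction of 4 of these 5 depends on the scaling.

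**Figure D2:**
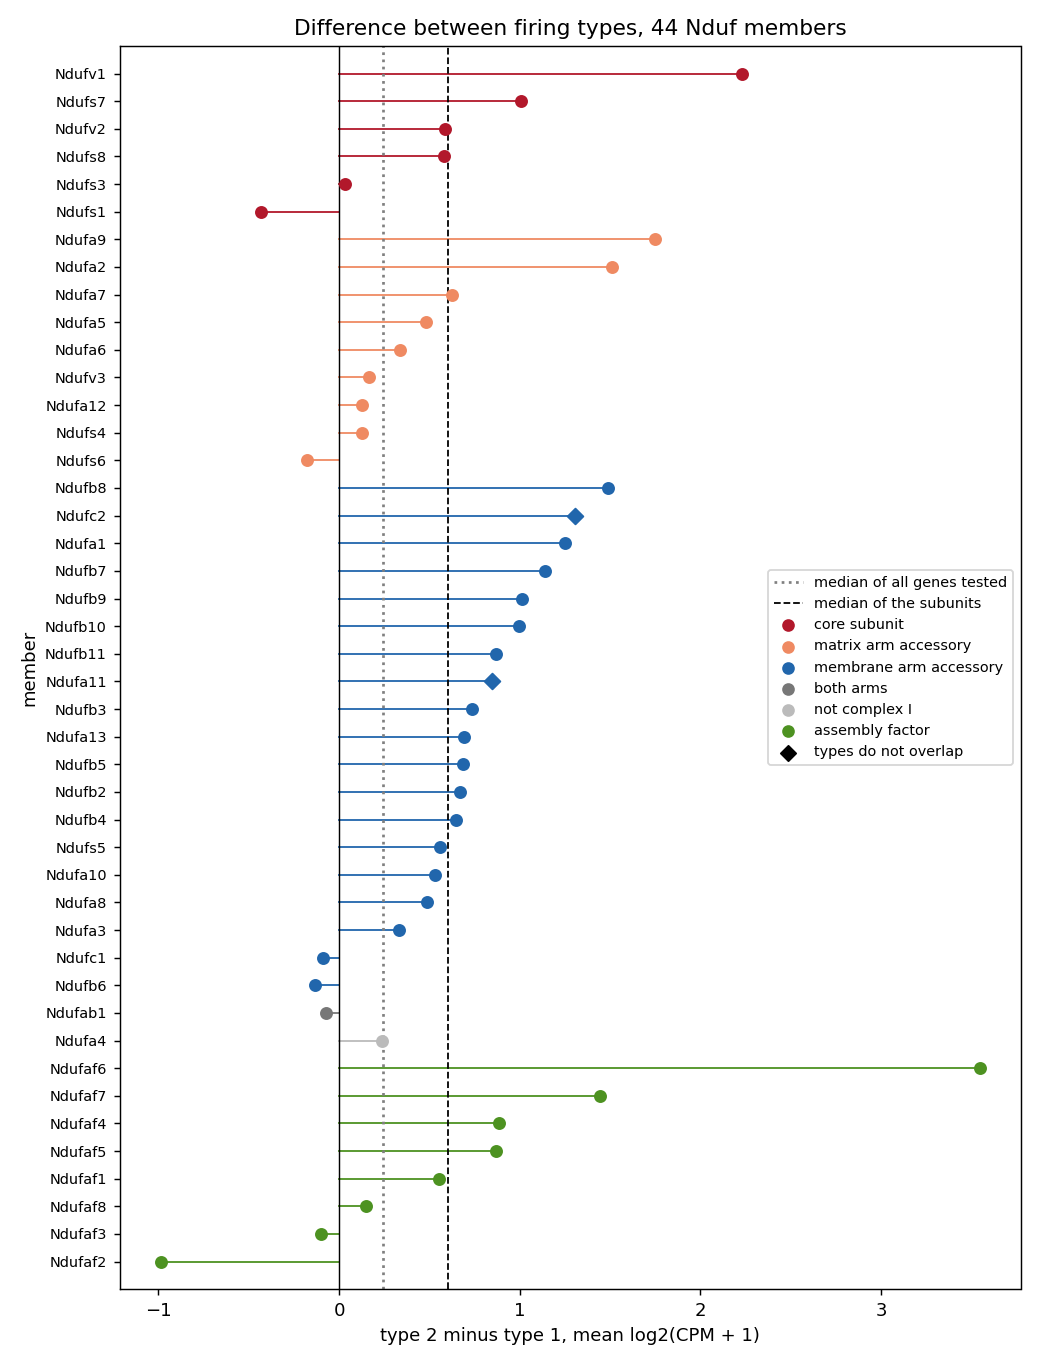
Difference between the type means of log2(CPM + 1), as type 2 minus type 1, for the members drawn, grouped by role, with a dotted line at the all-gene median of 0.24 and a dashed line at the subunit median of 0.61. Diamonds mark Ndufc2 and Ndufa11, whose types do not overlap. Most subunits lie to the right of 0, and the assembly factors spread widest, from -0.99 (Ndufaf2) to 3.55 (Ndufaf6).

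Neuron 6-2 carried much of the upper end. Of the 36 subunits, 23 were highest in 6-2, 4 in 10-1, 3 in 9-4, 2 in 10-3 and 1 in 9-2, so 33 peaked in a type 2 neuron. The lowest value fell in a type 1 neuron for 34 subunits and was spread over all 5 of them, with 9 in 4-3, 8 in 8-2, 7 in 1-2 and 5 each in 1-1 and 9-1. The same counts over all genes were not made, so neither pattern is shown to be particular to the subunits. Neuron 6-2 also had the most detected genes of the 10 (7367). Without 6-2 the ratio of the summed levels was 1.36. Across the 10 neurons, a subunit's log2 level correlated with the mean of the other subunits at a median r of 0.46. The values ran from -0.09 for Ndufs1 to 0.92 for Ndufa11. This is a description over 10 libraries that share their totals with the genes compared.

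**Figure D3:**
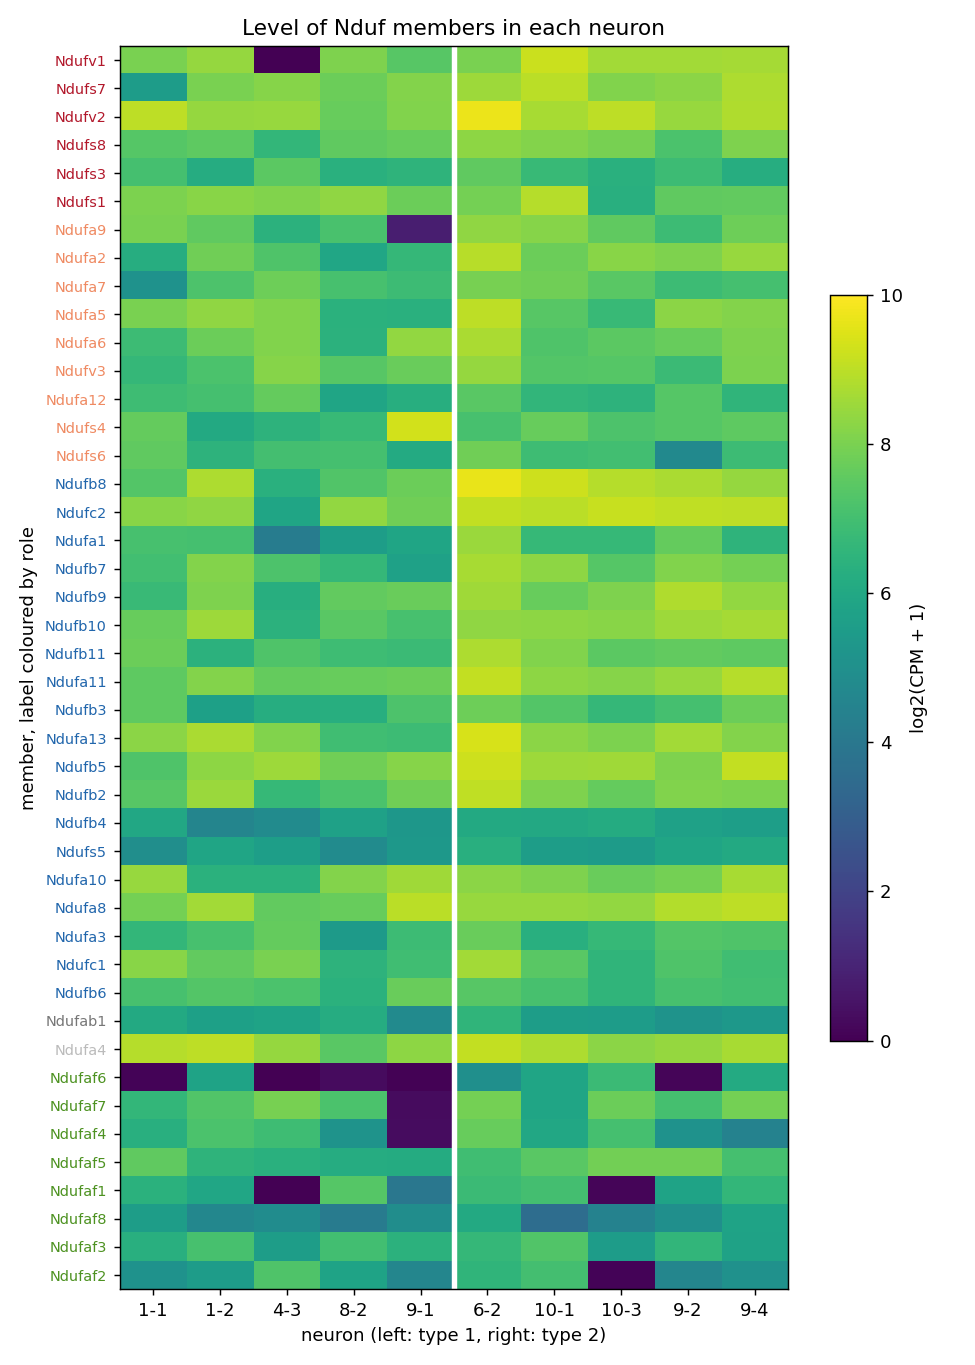
Level, log2(CPM + 1), of the members drawn (rows, by role) in every neuron (columns, type 1 then type 2). The column of 6-2 is the highest for 23 of 36 subunits, and single low cells stand out for Ndufv1 in 4-3 and for Ndufa9, Ndufaf4 and Ndufaf7 in 9-1.

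The core subunits of the matrix arm, which hold the redox centres, summed to 1572 ± 117 CPM in type 1, against 2189 ± 456 CPM in type 2, a ratio of 1.39. On library totals their sums did not overlap, with a type 1 maximum of 1648 CPM and a type 2 minimum of 1748 CPM. This depends on the scaling. Dividing by the TMM factors, 0.731 for 9-1 (1563 CPM) and 0.925 for 9-2 (1748 CPM), puts 9-1 above 9-2. How often sums of other genes keep the types apart was not counted. By gene, 6 of 7 had the higher mean in type 2, with a median difference of 0.58.

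Ndufv1 (chr19:4007384-4012806, mm10), the subunit that binds NADH and the flavin, had the largest difference among the subunits at 2.23, and 1 neuron set most of it. Its type 1 levels were 255, 341, 0, 265 and 170.4 CPM in 1-1, 1-2, 4-3, 8-2 and 9-1, and its type 2 levels were 253, 595, 386, 389 and 399 CPM in 6-2, 10-1, 10-3, 9-2 and 9-4. Neuron 4-3 had 0 counts in a library where that allows up to 0.306 CPM, and without it the difference was 0.64. Ndufs7, which carries the last iron-sulphur cluster before ubiquinone, was at 44.7, 254, 286, 214 and 285 CPM in the type 1 neurons and 371, 495, 274, 307 and 435 CPM in the type 2 neurons, in the same order of neurons. Its difference of 1.01 became 0.51 without 1-1, the only neuron below 200 CPM.

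At the other end, Ndufs1, the large iron-sulphur subunit at the electron entry of the arm, was at 262, 298, 272, 323 and 214 CPM in type 1. In type 2 it was at 238, 476, 78.2, 188 and 195 CPM, a difference of -0.43. Neuron 10-1 was above every type 1 neuron and 10-3 was the lowest of all 10, so the type 2 neurons lay on both sides of type 1. Ndufs3, a core subunit without a redox centre, had 133, 72.3, 177, 80 and 90.4 CPM in the type 1 neurons and 186, 107, 81.5, 116 and 73.5 CPM in the type 2 neurons, and its types covered nearly the same range (difference 0.03). Ndufv2 and Ndufs8 had differences of 0.59 and 0.58. All 7 mitochondrially encoded complex I genes (mt-Nd) were listed with 0 counts in every neuron, so the core of the membrane arm was not analysed here.

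The accessory subunits of the matrix arm summed to 1431 ± 298 CPM in type 1, against 1867 ± 596 CPM in type 2, a ratio of 1.31, and 8 of 9 had the higher mean in type 2 with a median difference of 0.34. Ndufa9, which sits where the arms join, was at 255, 189, 85.5, 138 and 0.797 CPM in the type 1 neurons and 325, 288, 185, 116 and 218 CPM in the type 2 neurons. Its difference of 1.75 was 0.46 without 9-1, where it had 25 counts. Ndufa2, a small subunit with a thioredoxin-like fold, was at 73.8, 228, 150.3, 58.9 and 99.5 CPM in the type 1 neurons and 489, 213, 301, 266 and 348 CPM in the type 2 neurons. The types overlapped only between 1-2 and 10-1, and its difference of 1.51 stayed between 1.30 and 1.78 as each neuron was left out in turn. Ndufa2 is among the genes that share exon bases with an opposite gene, 66 bases with Tmco6.

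Ndufs6, a zinc-binding subunit added late in assembly, was at 186, 87.3, 127, 133 and 68 CPM in the type 1 neurons and 228, 118, 125, 25.7 and 115 CPM in the type 2 neurons. Its difference of -0.18 was 0.31 without 9-2, the lowest neuron. Ndufs4, whose loss gives mice a severe brain disease, was at 196, 67.2, 86.4, 107 and 642 CPM in the type 1 neurons and 136, 204, 148, 162 and 183 CPM in the type 2 neurons. The 9-1 value was the highest of any subunit in any type 1 neuron. On the CPM scale the type 1 mean was higher (219.6 ± 241 against 167 ± 27.4 CPM), while the log2 difference was 0.13 and reached 0.65 without 9-1. Ndufa12 also differed by 0.13, and Ndufa7, Ndufa5, Ndufa6 and Ndufv3 by 0.62, 0.48, 0.34 and 0.17.

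The membrane-arm accessory subunits had the highest ratio of summed levels among the subunit groups, a ranking that was not tested. They summed to 3295 ± 727 CPM in type 1, against 5374 ± 1188 CPM in type 2, a ratio of 1.63, and 17 of 19 had the higher mean in type 2 with a median difference of 0.69. The ratio of their sum to that of the matrix-arm subunits (core and accessory) was 1.09 ± 0.197 in type 1 and 1.34 ± 0.167 in type 2. These ratios overlapped between types, with a type 1 maximum of 1.37 and a type 2 minimum of 1.12.

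Ndufc2 (chr7:97400003-97407802, mm10), a membrane-arm subunit whose gene start is printed above, was at 299.9, 324, 58.6, 329 and 229.9 CPM in type 1. Its type 2 levels were 539, 499.6, 564, 527 and 511 CPM, a narrow band entirely above type 1. The means were 248 ± 113 and 528 ± 24.9 CPM, and the difference of 1.31 became 0.85 without 4-3. Ndufa11 (chr17:56717767-56722141, mm10), a membrane-embedded subunit at the middle of the complex, was at 184, 283, 196, 203 and 215 CPM in the type 1 neurons and 543, 318, 292, 353 and 474 CPM in the type 2 neurons. Its means were 216 ± 38.8 and 396 ± 108 CPM and its difference 0.85, although the highest type 1 neuron, 1-2, lay close under the lowest type 2 neuron, 10-3. Ndufa11 shares 70 exon bases with the oppositely oriented gene Vmac, which had 1793 counts over the 10 libraries, so its values carry the doubt about strand. These were 2 of 36 subunits with every type 2 neuron above every type 1 neuron, beside 1.44% of all genes and 1.28% of genes in the subunits' range. No subunit had every type 1 neuron above every type 2 neuron, beside 0.587% of all genes and 1.14% of genes in the range. Taken as a ratio to the summed subunit CPM, no member kept its types apart. Over all genes, that ratio put every type 2 neuron above every type 1 neuron for 0.839% (0.525% of genes in the subunits' range), and the reverse for 1.60% (2.85% of those in the range). Each subunit is part of the sum it is divided by, while other genes are not, so these shares are not a like comparison for the subunits. Ndufc2 was 3.91 ± 1.89% of the summed subunit CPM in type 1 and 5.77 ± 1.24% in type 2. Ndufa11 was 3.41 ± 0.393% and 4.16 ± 0.596%.

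**Figure D4:**
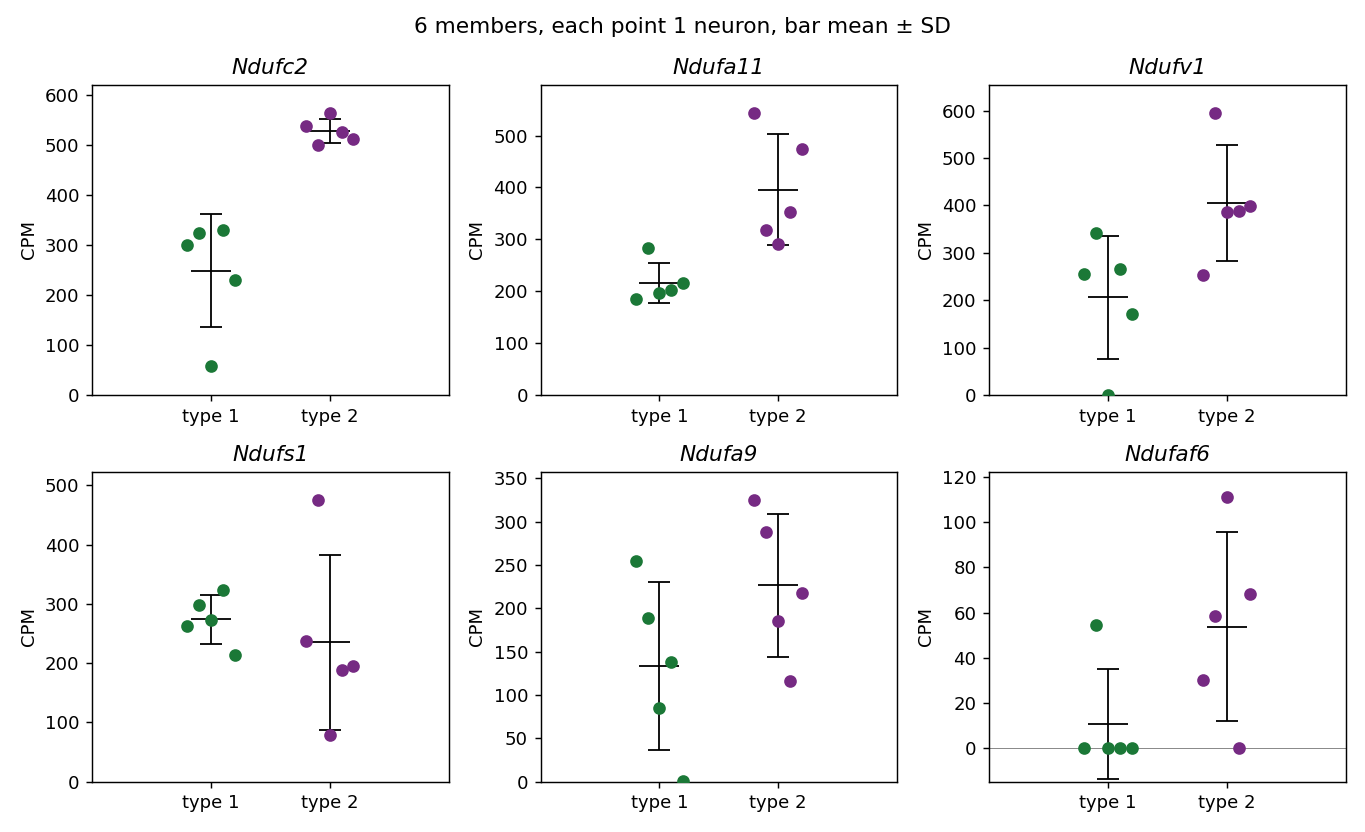
CPM in each neuron (points) for 6 members, type 1 beside type 2, with the mean and SD of each type as bars. The type 2 values of Ndufc2 (499.6 to 564 CPM) and Ndufa11 (292 to 543 CPM) all lie above their type 1 values.

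Ndufb8, in the part of the membrane arm farthest from the matrix arm, had the largest difference of this group at 1.49. It was at 159, 436, 80.5, 157 and 215 CPM in the type 1 neurons and 804, 611, 475, 418 and 339 CPM in the type 2 neurons, and only 1-2 reached into the type 2 range. Ndufa1, Ndufb7 and Ndufb9 had differences of 1.25, 1.14 and 1.01, and that of Ndufa1 was 0.82 without 4-3. Ndufb6 was at 136, 161, 144, 81.7 and 212 CPM in the type 1 neurons and 167, 135, 91.7, 134 and 123 CPM in the type 2 neurons (difference -0.14). Ndufc1 was at 298, 191, 254, 88.4 and 123 CPM in the type 1 neurons and 391, 173, 92, 152 and 122 CPM in the type 2 neurons (difference -0.09). For both, the type 2 neurons lay almost wholly within the type 1 range, Ndufc1 in 6-2 being the exception.

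Per kb of exon, averaged over the 10 neurons, Ndufc2 was the highest subunit at 515 CPM per kb, followed by Ndufa8 at 410.1 and Ndufa2 at 389.7. Ndufa8, an intermembrane-space subunit held by disulphide bonds, was at 240.0, 392, 192, 201 and 494 CPM in the type 1 neurons and 349, 353, 334, 464 and 512 CPM in the type 2 neurons (difference 0.49). The lowest were Ndufs1 at 31.4, Ndufb4 at 26.2 and Ndufab1 at 7.68 CPM per kb. With the length of the principal transcript in place of all exons, Ndufc2 remained first, Ndufa11 and Ndufb8 came next, and Ndufb2, Ndufb4 and Ndufab1 were the last. First place depended on the type: per kb of exon, Ndufa8 (353) stood above Ndufc2 (329) in type 1 and Ndufc2 (700.4) above Ndufa2 (566) in type 2. With principal transcripts, Ndufa11 (397) was first in type 1 and Ndufb8 (779) in type 2, with Ndufc2 next in both (363 and 773). Ndufb4, a membrane-arm subunit, was at 62.8, 22.7, 27.2, 51.4 and 37.7 CPM in the type 1 neurons and 66.9, 64.4, 70.8, 51.1 and 47.7 CPM in the type 2 neurons (difference 0.65). Ndufab1, the mitochondrial acyl carrier protein found in both arms, was at 66.4, 50.8, 54.5, 71.2 and 26.5 CPM in the type 1 neurons and 93.3, 46.8, 45.7, 34.1 and 39.3 CPM in the type 2 neurons (difference -0.07). Of the genes that are not complex I subunits, Ndufa4, now assigned to complex IV, was at 362 ± 136 CPM in type 1, against 407 ± 89.6 CPM in type 2 (difference 0.24), and Ndufa4l2 had 0 counts in all 10 neurons.

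Subunits were detected almost everywhere. Of 360 values for the 36 subunits in 10 neurons, 358 (99.4%) passed, the exceptions being Ndufv1 in 4-3 and Ndufa9 in 9-1, and 34 of 36 subunits were detected in all 10 neurons, beside 14.2% of all genes and 30.3% of genes in the subunits' range. The shallowest library, 4-3, and the library of 9-1, with 31385173 counts, each missed 1 subunit. The assembly factors were patchier, with 70 of 80 values detected (87.5%) and 3 of 8 genes detected in all 10 neurons.

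Assembly factors summed to 604, 704, 671, 606 and 223 CPM in the type 1 neurons and 964, 778, 755, 602 and 695 CPM in the type 2 neurons. The means were 561 ± 194 and 759 ± 133 CPM, a ratio of 1.35, and as a share of the subunit sum they were 9.01 ± 3.36% and 8.11 ± 1.19%. Of the 8, 6 had the higher mean in type 2, beside 56.2% of all genes, with a median difference of 0.71 that came to 0.11 without 9-1. In 9-1, Ndufaf4 and Ndufaf7 had 8 and 7 counts.

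Ndufaf6 (chr4:11051045-11076205, mm10), which acts early in assembly, had the largest difference of all members at 3.55. It was at 0.0668, 54.4, 0, 0.215 and 0.0319 CPM in the type 1 neurons and 30.3, 58.6, 111, 0.105 and 68.4 CPM in the type 2 neurons. The gene was thus under 1 CPM or at 30.3 CPM and more, and 1 of 5 type 1 neurons and 4 of 5 type 2 neurons had it at the detection level. Ndufaf7, an arginine methyltransferase, was at 96.2, 154, 247, 142 and 0.223 CPM in the type 1 neurons and 238, 58.4, 214, 132 and 237 CPM in the type 2 neurons. Its difference of 1.44 was 0.05 without 9-1.

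Ndufaf2, a paralog of Ndufa12 that acts late in assembly, was at 33.7, 45.7, 151, 54.2 and 23 CPM in the type 1 neurons and 92.7, 129, 0.0828, 23.3 and 32.1 CPM in the type 2 neurons. Its difference of -0.99 was 0.15 without 10-3, where it had 3 counts. Ndufaf3, which works with Ndufaf4, was at 77.3, 134, 46.1, 124 and 85.4 CPM in the type 1 neurons and 100.3, 155, 44.9, 96.1 and 52.9 CPM in the type 2 neurons, fully overlapping ranges (difference -0.10). Ndufaf1, which acts on the membrane arm together with Ecsit and Acad9, was at 83, 59.3, 0, 162 and 14.7 CPM in the type 1 neurons and 111, 128, 0.11, 54.2 and 98.5 CPM in the type 2 neurons (difference 0.55). Neuron 4-3 had 0 counts of it and 10-3 had 4 counts. Ndufaf4, Ndufaf5 and Ndufaf8 had differences of 0.88, 0.87 and 0.15, and that of Ndufaf4 was -0.33 without 9-1. Across neurons, each assembly factor correlated with the mean of the other assembly factors at a median r of 0.22 (0.05 to 0.53).

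Among 11 listed assembly genes with other names, the type 2 mean was the higher one for 9, beside 56.2% of all genes, and the median difference was 1.70. Acad9, a partner of Ndufaf1, was at 66.5, 1.23, 0.102, 0.0478 and 9.65 CPM in the type 1 neurons and 104, 77.5, 159.6, 38.9 and 66.8 CPM in the type 2 neurons, so it was detected in 1 of 5 and 5 of 5 neurons (difference 4.18). Timmdc1, which helps to build the membrane arm, went the other way, with 67.5 ± 45.9 CPM in type 1, against 19.4 ± 22.7 CPM in type 2 (difference -1.85).

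The rest of the respiratory chain also leaned to type 2. All 4 complex II genes stood higher on average in type 2, with a median difference of 0.34, as did 9 of 9 for complex III (0.55), 9 of 10 for complex IV (0.52) and 14 of 16 for ATP synthase (0.64), beside 0.61 for the complex I subunits and 0.24 for all genes, of which 56.2% had the higher mean in type 2. The members with the largest differences were Sdha (0.75), Uqcrh (1.32), Cox6b1 (0.94) and Atp5l (1.50), and those with the lowest below 0 were Cox7c (-1.15) and Atp5g2 (-1.93). Of 11 genes of the outer membrane and protein import, 6 had the higher mean in type 2, near the share of all genes (median 0.07, from Tomm70a at -1.99 to Tomm22 at 0.85). Among 9 regulators of mitochondrial biogenesis, 6 had the higher mean in type 2 (median 1.36). Pprc1, a coactivator related to PGC-1alpha, was at 22.3 ± 32 CPM in type 1, against 57.2 ± 45.6 CPM in type 2 (difference 2.73), with SDs about as large as the gap between the means. Ppargc1b was listed at 0 in all 5 type 2 neurons and in 3 type 1 neurons, and only 4-3 had a level above 1 CPM, at 81.4 CPM. The differences between these lists were not tested.

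**Figure D5:**
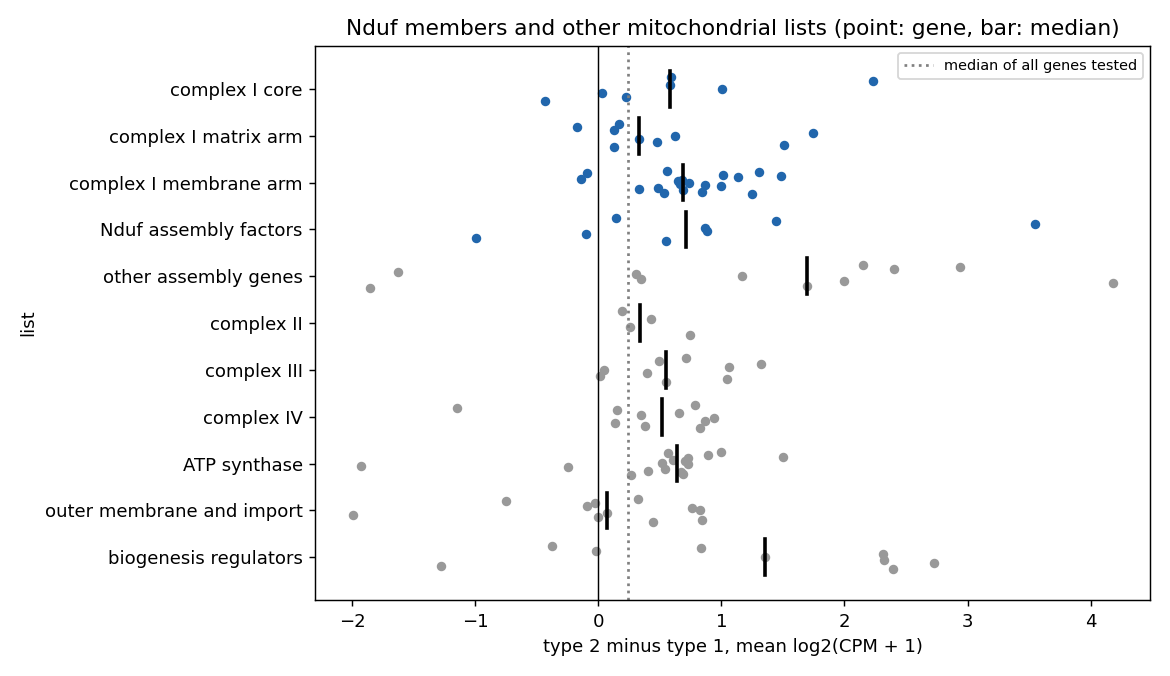
Differences (type 2 minus type 1, mean log2(CPM + 1)) of the genes in each mitochondrial list (points), with a bar at each list's median. The medians of the respiratory complexes, from 0.34 to 0.69, lie to the right of the dotted all-gene median of 0.24, and that of the outer membrane and import genes (0.07) lies to its left.

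Other measures moved with firing type. Of 14 microglial genes, 13 were detected in 6-2 and 9-4, 7 in 9-2, 5 in 1-2 and at most 2 in each other neuron, and their summed level ran from 0.0668 to 807 CPM in type 1 and from 4.25 to 1846 CPM in type 2. The type 2 neurons 10-1 and 10-3, with 0 and 1 microglial genes detected, had subunit sums of 9285 and 7492 CPM. Over the 6 neurons with fewer than 5 microglial genes detected, 23 of 36 subunits had the higher mean in type 2 (49.8% of all genes did), the median difference was 0.56 and the summed ratio 1.39. The astrocyte list ran from 149.8 to 673 CPM among type 1 neurons and from 1045 to 1775 CPM among type 2 neurons, mostly through Aldoc. Among its other genes, Sox9 was at 102 CPM in 6-2 and 52 CPM in 9-4, Gfap at 56.1 CPM in 6-2 and 15.6 CPM in 9-1, Aldh1l1 at 51 CPM in 9-4 and S100b at 73.9 CPM in 4-3. Slc1a2 was at 30.6 CPM in 4-3 and 20.7 CPM in 6-2, while Slc1a3 had 0 counts in all 10 neurons and Aqp4 reached at most 0.445 CPM. Of the 10 astrocyte genes, 5 were detected in 6-2 and 1 to 3 in each other neuron. Oligodendrocyte genes summed to 2 to 1045 CPM per type 1 neuron and 39.2 to 220.2 CPM per type 2 neuron, and vascular and blood genes to at most 27.6 CPM in any neuron. Malat1, a nuclear RNA, was at 13657 ± 9709 CPM in type 1, against 4051 ± 3100 CPM in type 2. It was lowest in 10-1 (676 CPM), whose subunit sum was 9285 CPM, and highest in 4-3 (25043 CPM), whose sum was 5716 CPM, while 8-2, at 1783 CPM, had the lowest sum of all 10 (5321 CPM). The part of astrocyte and nuclear RNA in these differences was not tested, and how much cytoplasm each pipette drew cannot be told apart from the RNA content of the neuron.

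Depth was also uneven between types. Among the 4 libraries under 20000000 counts, 1 of them type 2 (6-2), the summed ratio was 1.95 and 35 of 36 subunits had the higher mean in type 2, beside 60.6% of all genes. Among the 6 deeper libraries (2 type 1 and 4 type 2), 28 of 36 did, beside 51.5% of all genes. The all-gene median moved in the same direction, to 0.69 in the shallow and 0.07 in the deep libraries, and in both sets 28 of 36 subunits lay above it. Neurons whose names start with 9 include both types (9-1, 9-2 and 9-4), and among them 26 of 36 subunits had the higher mean in type 2, beside 57.2% of all genes. There the subunit median minus the all-gene median was -0.11, where over all 10 neurons it was 0.36. What the first number stands for is not given in the sources used here.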

How the data were processed

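RNA of 10 single neurons was sequenced, 1 library per neuron. Per the submitters' processing notes, cutadapt 1.13, STAR, HTSeq 0.6.1p1 and DESeq2 were used with the mm10 build. Sources used here do not give their order, the annotation release or the strand option. Deposited per gene were raw read counts, all whole numbers and not normalized, and no molecular identifiers are recorded. A count of 0 allows up to 3 counts of a library's total, from 0.0717 to 0.306 CPM.

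CPM was computed from the 25006 listed genes. Identifiers gave symbols for 24942 of them, and coordinates for 24991 came from GENCODE M21 (GRCm38, the assembly named mm10). Differences used a pseudocount of 1, and 45 of the 46 members passed a mean of at least 1 CPM. Role groups and gene lists were taken from general knowledge of the complex, and the members and lists were chosen with earlier results of these data known. Values by neuron are given for the 2 largest and 2 smallest differences of each role group, members whose types do not overlap, members with 0 counts in a neuron while detected in at least 5 others, and the 3 highest and 3 lowest subunits per kb. Other named members and lists were added after their values were seen. The totals and counts include 1 gene that is not reported here. No library copied another: over the 45 pairs, chi-square divided by its degrees of freedom was at least 559. The calculation of differences was tested on simulated counts with known folds, which did not imitate transcripts missing from single neurons. Alternatives were TMM (edgeR 4.0.16) and DESeq2 1.42.0 scaling, other pseudocounts, filters and totals, thinning, medians, subsets of neurons and leaving out each neuron. Python 3.11.15, pandas 2.3.3, scipy 1.17.1 and R 4.3.3 were used.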

Additional observations from a re-analysis of the deposited data

Results flagged for a closer look

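In 10 of 96 groups of 5 neurons (10.4%), 1 neuron's level lay far from the other 4, with a gap to the nearest of them above 0.71 of the group's range. For independent values with a normal spread, chance flags about 1 in 20 groups. The groups here share neurons, some hold values near 0, and a sum is checked beside its own members. The 10.4% therefore cannot be read as an excess over chance. Neuron 9-1 stood low among type 1 for the summed assembly factors (223 CPM), Ndufa9 (0.797 CPM) and Ndufaf7 (0.223 CPM). Neuron 4-3 stood low for Ndufc2 (58.6 CPM) and Ndufv1 (0 CPM). Neuron 1-1 stood low for Ndufs7 (44.7 CPM) and high for Ndufaf5 (189 CPM). Ndufaf6 was high in 1-2 among type 1 (54.4 CPM) and low in 9-2 among type 2 (0.105 CPM), and Ndufaf1 was low in 10-3 (0.11 CPM).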

How the results depend on the processing

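With 1 cell per library and no named animals, no difference here has a replicate check beyond the spread between neurons, and counts of 0 in an aspirated cell do not show that a transcript was absent. No paired analysis was possible because the labels give neuron names only, tie no neuron of one type to one of the other, and no test was made.

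In the 4 libraries under 20000000 counts, the median difference over subunits was 1.08 (0.61 over all 10 neurons), the ratio of summed subunit CPM was 1.95 (1.49), 21 subunits had a difference of 1 or more (9), and 29 of 36 subunits had every type 2 neuron above every type 1 neuron (2), where 28.4% of all genes did, with 6-2 the only type 2 neuron. That last number was 14 in the deeper libraries (7.98% of all genes), 9 in the neurons with fewer than 5 microglial genes detected, a set chosen after seeing the data (8.39%), 22 in the neurons with first number 9 (37.6%), and 6 with TMM scaling (1.65%), beside 1.44% over all 10 neurons. The share of all genes with a difference of 1 or more was 45.7% in the shallow libraries and 31.1% over all 10 neurons. In the neurons with first number 9, the median over assembly factors was 1.77 (0.71) and the subunit median minus the all-gene median was -0.11 (0.36). With medians over neurons, 4 subunits had a difference of 1 or more, beside 24.3% of all genes. In that setting 27 subunits had the higher median in type 2, beside 50.3% of all genes, and the all-gene median was 0.01. The cause of these changes was not tested. The subsets also hold fewer neurons than the full set. The direction of the other summary values was the same in all settings run. Leaving out each neuron in turn gave a subunit median of 0.49 to 0.69, 28 to 33 subunits higher in type 2, a summed ratio of 1.36 to 1.57, a subunit median minus all-gene median of 0.20 to 0.46, and an assembly-factor median of 0.11 to 1.05 with 5 to 8 genes higher in type 2. It gave 5 to 10 subunits with a difference of 1 or more (5 without 4-3) and 2 to 6 with separate types (6 without 1-2). Of 1035 values of single members under the alternatives, 1006 moved by less than the spread between neurons and 29 moved by more. Leaving out 1 of 5 neurons or changing the filter could not move a value by that spread. Those settings were bound to count among the 1006, so that number does not measure stability. The 11 members with a difference of 1 or more kept their sign in all settings.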
